A study of Homo sapiens with 24 samples.

Results

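Expression of 10 genes of the Notch pathway was followed in LUHMES aggregates exposed to rotenone and in unexposed aggregates. The set held the receptors NOTCH1, NOTCH2 and NOTCH3, the ligands DLL1, DLL3 and JAG1, and the nuclear genes HES1, HES5, HES6 and HEY1. Genes were found through the RefSeq accession of their array probes, which gave 15 probes for all 10 genes, out of 21240 genes tested. NOTCH1 and NOTCH2 had 2 probes each, HES6 had 4, and the other 7 genes had 1.

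Notch signaling passes between touching cells. A ligand such as DLL1 or JAG1 on the surface of a cell binds a NOTCH receptor on its neighbor, the receptor is cleaved by ADAM proteases and γ-secretase, and its intracellular part enters the nucleus. There it joins the DNA-binding protein RBPJ and switches on HES and HEY genes, whose products are bHLH repressors of the proneural genes that drive cells toward neurons. In the developing brain, this keeps progenitors from differentiating, whereas HES6 is an atypical family member known to counteract HES1. DLL3 acts mostly inside the cell that makes it and does not activate receptors on neighbors.

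LUHMES is a single human mesencephalic line, immortalized by a tetracycline-controlled v-myc transgene that all groups carry, and it becomes a culture of dopaminergic neurons when the transgene is shut off. Aggregates in suspension received 50 nM rotenone for 12 h, 50 nM for 24 h, 100 nM for 24 h, or DMSO as vehicle, with exposure starting on day 7 of differentiation. Rotenone blocks mitochondrial complex I. Aggregates were collected either on day 8 or on day 15, the latter after rotenone had been removed and 7 more days in culture, which made 8 groups of 3 wells. A single DMSO group per day served all exposures, and its sample titles give no exposure time. Whether it matched the 12 h wells in hours of treatment and collection is therefore not known. The question of the design was which changes appear right after exposure and which are left after recovery. Wells are not said to come from separate differentiations, so that p values measure the spread between wells, with any remaining differences between array slides. The main fit did not pair wells by slide.

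RNA of each well was hybridized to its own single-color array, and values below are log2 normalized intensities, in which a difference of 1 is a doubling of signal. They were compared between groups for a gene, not between genes. Between 48.1% and 80.5% of all spots, controls included, were well above background on an array, with the higher shares on slide 1. The study's methods describe a subset of arrays run at another time with another wash, but do not name it. Slide 1 was taken as that subset, which is an assumption. The file headers set slide 2 apart instead, by its version of the Feature Extraction software. A batch correction with slide 2 as the subset was not run. The array of 100 nM, day 15, replicate 3 stood apart, with a median raw signal of 98.5 against 51 to 78 on the others and a residual SD of 0.45 against 0.2 to 0.31. The name of the scan of DMSO, day 15, replicate 1 does not match its label, and values that rest on it are given without it where the call changes. All 9 neuronal markers were well above background in every group, as were TH and SLC6A3 (the dopamine transporter) on all 24 arrays. The vesicular transporter SLC18A2 was so on 3 of 24 arrays, and the progenitor factor SOX2 on 0. Of 8 neural progenitor markers, SOX2 among them, 6 were well above background on all 3 DMSO arrays of day 8, as on day 15.

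Promoter windows were available from RefSeq (GRCh38.p14) for 7 of the 10 genes, and not for DLL1, DLL3 or HEY1. The windows of 250 bases before the start of HES1, HES5 and HES6 are shown because HES5 fell and HES6 rose with rotenone, and HES1 is the best-known target of the pathway. Capitals mark the core of the RBPJ binding site, TGGGAA, on either strand.
HES1, chr3:194135898-194136147, plus strand: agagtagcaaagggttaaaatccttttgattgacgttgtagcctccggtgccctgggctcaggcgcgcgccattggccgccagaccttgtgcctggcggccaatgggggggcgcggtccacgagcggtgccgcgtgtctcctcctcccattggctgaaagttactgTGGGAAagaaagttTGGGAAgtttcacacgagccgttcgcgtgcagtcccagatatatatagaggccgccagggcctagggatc
HES5, chr1:2530264-2530513, minus strand: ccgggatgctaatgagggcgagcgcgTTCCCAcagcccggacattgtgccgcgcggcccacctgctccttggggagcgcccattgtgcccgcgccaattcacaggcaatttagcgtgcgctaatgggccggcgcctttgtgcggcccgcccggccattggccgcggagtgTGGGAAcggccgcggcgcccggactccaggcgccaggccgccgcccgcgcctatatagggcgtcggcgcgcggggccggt
HES6, chr2:238240039-238240288, minus strand: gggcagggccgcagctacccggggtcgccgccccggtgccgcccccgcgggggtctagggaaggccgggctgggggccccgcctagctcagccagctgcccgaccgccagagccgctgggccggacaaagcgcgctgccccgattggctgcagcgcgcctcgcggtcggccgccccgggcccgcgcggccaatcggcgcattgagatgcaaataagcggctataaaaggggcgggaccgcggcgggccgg

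The HES1 window held 2 cores, of which the match 84 to 79 bases before the start lay within the longer site GTGGGAA. The HES5 window held 2 matches of GTGGGAA, at 81 to 75 bases on the coding strand and at 224 to 218 bases on the opposite strand. The HES6 window held 0 matches of either. Over all 34943 promoters of the table, 5.41% held GTGGGAA and 20.9% held TGGGAA, which GTGGGAA contains. A pair of motifs bound by HES and HEY repressors was searched as well. The N box, CACNAG, was found 3 times before HES1 and 1 time before NOTCH3, against 32.1% of all promoters with a match, and the class C site, CACGNG, was found 4 times and 1 time, against 26.6%. CACNAG and CACGNG share letters, so that 2 of the matches before HES1 and the match before NOTCH3 are counted under both. NOTCH1, NOTCH2 and JAG1 had 0 matches of the 4 motifs in their windows.

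**Figure D1:**
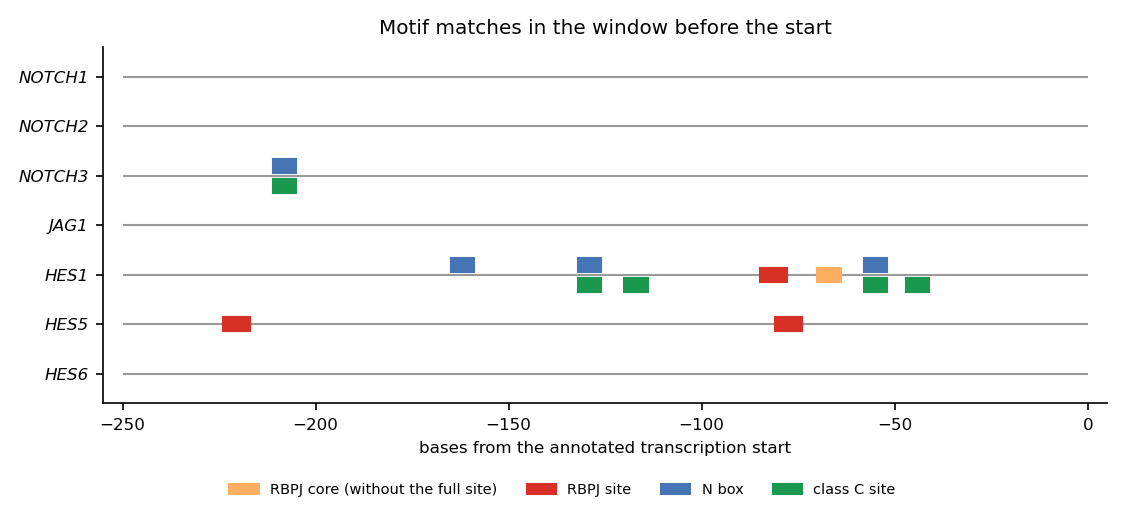
Matches of 4 motifs on both strands in the 250 bases before the annotated start of the 7 genes with a RefSeq promoter window; the horizontal axis is the distance from the start in bases. HES1 and HES5 hold RBPJ sites, at 85 to 79 bases in HES1 and at 81 to 75 and 224 to 218 bases in HES5.

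The levels of 9 genes could be followed on all 24 arrays. The exception was HES1, which was well above background on 2 of 24 arrays (1 of 50 nM for 12 h and 1 of 100 nM, both on day 15), and for which no fold change is given. Its normalized intensity ranged from 0.18 to 6.15, with the highest value on the array that stood apart. Ordered by group means, NOTCH1, NOTCH3, DLL3 and JAG1 had all 4 day 8 groups above all 4 day 15 groups, and DLL1 the reverse. For these 5 genes, 6 of 7 neighboring pairs of groups overlapped, and the gap lay between the days. The widest of these gaps was that of JAG1, at 1.71 between the means of the lowest day 8 group and the highest day 15 group, and the narrowest was that of DLL3, at 0.54. NOTCH2 also had all day 8 groups above the day 15 groups, and its DMSO group of day 8 (6.06 ± 0.03, SD, n = 3) overlapped neither the next higher group nor the next lower. HES5 and HEY1 had their 3 lowest groups in the 3 exposed groups of day 8 instead.

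**Figure D2:**
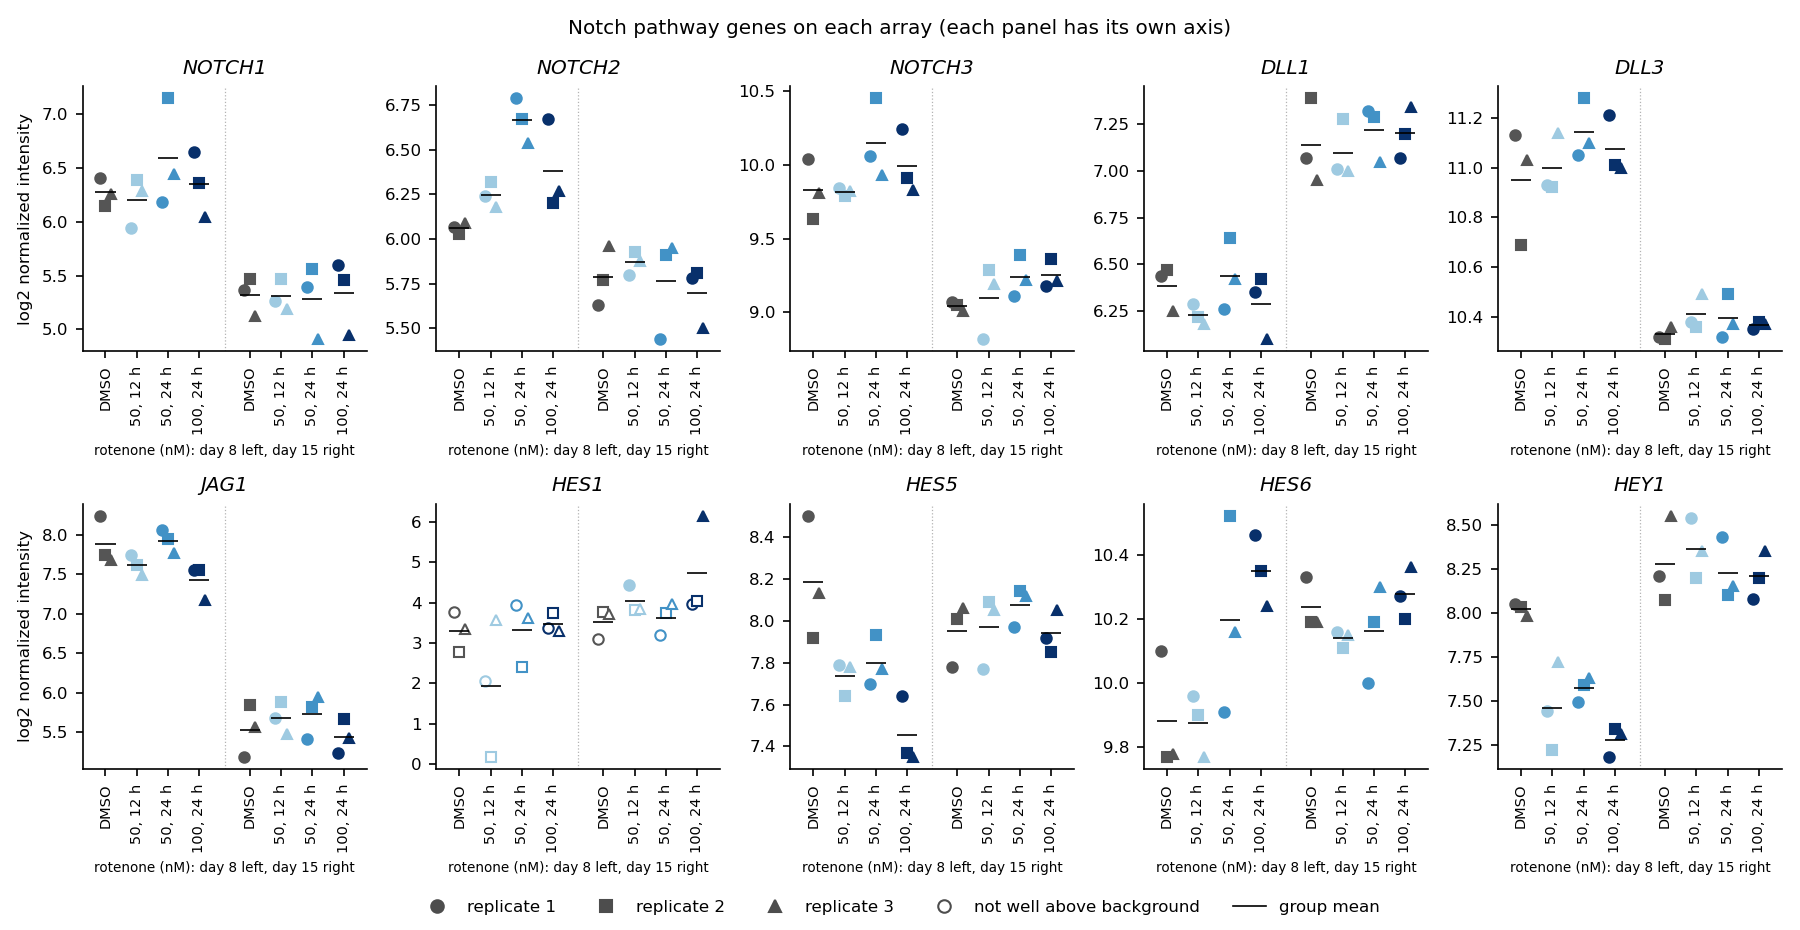
Log2 normalized intensity of the 10 genes on each of the 24 arrays; symbols are replicates, horizontal lines are group means of 3 arrays, and open symbols are values not well above background. For the receptors and JAG1 all day 8 wells lie above all day 15 wells, for HEY1 the 9 wells exposed on day 8 lie below all others, and HES1 lies near background.

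Directly after exposure to 100 nM for 24 h, HES5 and HEY1, both repressors that Notch activates, fell, and HES6 rose. HES5 measured 8.5, 7.92 and 8.13 in DMSO and 7.64, 7.37 and 7.35 with rotenone. All exposed wells lay below all control wells, by 0.73 on average (SE 0.13, ratio 0.603, adjusted p = 0.00139). HEY1 measured 8.05, 8.03 and 7.98 in DMSO and 7.18, 7.34 and 7.31 with rotenone. Here too the groups did not overlap, and the log2 change was -0.74 (SE 0.14, ratio 0.597, adjusted p = 0.00139). HES6 measured 10.1, 9.77 and 9.78 in DMSO and 10.46, 10.35 and 10.24 with rotenone. Its lowest exposed well lay above its highest control well, with a log2 change of 0.47 (SE 0.13, ratio 1.39, adjusted p = 0.0239). In an array of pooled RNA, fewer cells that express a gene and less RNA per cell cannot be told apart.

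These were the 3 of 10 genes called at an adjusted p under 0.05 in limma, against 9.48% of all genes tested. In this comparison 1 of 10 was higher, against 4.07% of all genes, 2 were lower, against 5.41%, and these 2 changed by over 1.5-fold, against 3.45%. For 5 of the 10 genes the unadjusted p was under 0.05, against 20.6%, and for 5 the groups did not overlap, against 28.5%. Before correction of the slides, the change of HES5 was -0.87, -0.54 and -0.78 within slides 1, 2 and 3, that of HEY1 was -0.86, -0.68 and -0.67, and that of HES6 was 0.36, 0.59 and 0.47. The 4 probes of HES6, which all belong to 1 transcript, gave changes of 0.33 to 0.56. The call of HES6 was lost without DMSO replicate 2 or 3 or exposed replicate 1 or 2 (adjusted p from 0.0622 to 0.11), and also without batch correction (0.123), on slides 2 and 3 alone (0.128), in a fit of these 6 arrays alone (0.0941) and with the brightest probe (change 0.33, adjusted p = 0.128). The call of HEY1 was lost on slides 2 and 3 alone (adjusted p = 0.178), and that of HES5 in a fit of these 6 arrays alone (adjusted p = 0.0722).

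At 50 nM, HEY1 fell after both exposure times. After 12 h it measured 7.44, 7.22 and 7.72, a change of -0.56 (SE 0.14, adjusted p = 0.0182), and after 24 h it measured 7.49, 7.59 and 7.63, a change of -0.45 (SE 0.14, adjusted p = 0.0474). No exposed well reached the lowest control well, at 7.98. HEY1 was the only one of the 10 genes called after 12 h, against 5.52% of all genes, and after 24 h 2 were called, against 8.02%. The groups of 3 genes did not overlap after 12 h, against 23.6%, and those of 2 genes after 24 h, against 28.1%. Within slides 1, 2 and 3, HEY1 changed by -0.61, -0.83 and -0.24 after 12 h and by -0.54, -0.44 and -0.35 after 24 h. HES5 measured 7.79, 7.64 and 7.78 after 12 h and 7.7, 7.93 and 7.77 after 24 h. Its changes of -0.45 (adjusted p = 0.0565) and -0.38 (adjusted p = 0.0922) did not pass the test, and after 24 h its highest exposed well overlapped the lowest control well. Without DMSO replicate 2 HES5 was called at both times, with changes of -0.58 (adjusted p = 0.0231) and -0.51 (adjusted p = 0.0329). HES6 changed by -0.01 after 12 h (adjusted p = 0.991) and by 0.32 after 24 h (adjusted p = 0.156). The 12 h call of HEY1 was lost without DMSO replicate 1 or 2 or exposed replicate 1 or 2 (adjusted p from 0.0572 to 0.111), and the 24 h call without any of the 6 arrays (adjusted p from 0.0882 to 0.16).

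Among the receptors, NOTCH2 rose with 50 nM for 24 h. It measured 6.07, 6.03 and 6.09 in DMSO and 6.79, 6.67 and 6.54 with rotenone, a change of 0.61 (SE 0.14, ratio 1.52, adjusted p = 0.0098). The exposed well lay above the control on each of slides 1, 2 and 3, by 0.72, 0.65 and 0.44 before batch correction, and the NOTCH2 probes moved by 0.62 and 0.59. With 100 nM for 24 h it measured 6.67, 6.2 and 6.27, above all controls but with a change of 0.32 that was not called (adjusted p = 0.185). The NOTCH2 probes may also hybridize to transcripts of the nearly identical NOTCH2NL genes, which was not tested. Without exposed replicate 1, the 50 nM change was 0.55 and no longer called (adjusted p = 0.0527). The call was also lost with the brightest probe (0.62, adjusted p = 0.156), without batch correction (0.0808), on slides 2 and 3 alone (0.125) and with normexp signal scaled to the 75th percentile (0.0505). NOTCH3 changed by 0.32 (adjusted p = 0.235) and NOTCH1 by 0.32 (adjusted p = 0.541) in the same comparison, and the NOTCH1 wells ranged from 6.18 to 7.15. After 12 h of 50 nM the receptors changed by -0.07 (NOTCH1), 0.18 (NOTCH2) and -0.01 (NOTCH3), all with an adjusted p over 0.5, and only the NOTCH2 wells (6.24, 6.32 and 6.18) lay above all controls.

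Ligands did not pass the test against DMSO on day 8 at any exposure. JAG1 came closest, with 8.24, 7.75 and 7.68 in DMSO and 7.55, 7.56 and 7.18 after 100 nM. These groups did not overlap, and the change was -0.46 (95% interval -0.85 to -0.06, adjusted p = 0.156). With a normexp offset of 50 it was called, with a change of -0.37 (adjusted p = 0.0157). DLL1 changed by -0.1 (95% interval -0.37 to 0.18) and DLL3 by 0.12 (95% interval -0.1 to 0.34) in that comparison. At 50 nM for 24 h, JAG1 measured 8.06, 7.95 and 7.77, inside the range of the controls, and its change was 0.04 (95% interval -0.36 to 0.43).

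**Figure D3:**
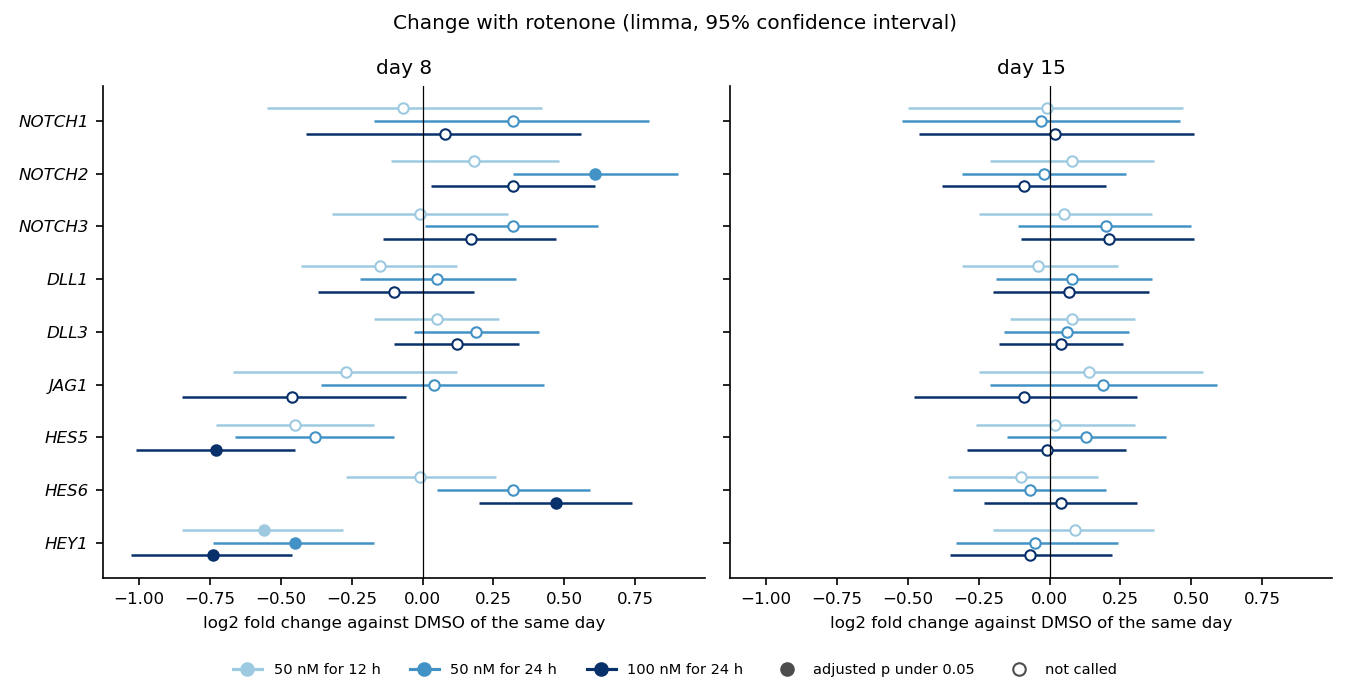
Log2 fold change against DMSO of the same day for 9 genes, on day 8 (left) and day 15 (right), with 95% confidence intervals from limma; filled points have an adjusted p under 0.05. HEY1 is filled at all 3 exposures on day 8, HES5 and HES6 at 100 nM, NOTCH2 at 50 nM for 24 h, and no point is filled on day 15.

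The doses and the exposure times were also compared directly. For 100 nM against 50 nM, both for 24 h on day 8, 0 of the 10 genes and 0 of all genes were called in limma, while 3 of the 10 and 4.17% of all genes had an unadjusted p under 0.05. Those 3 were JAG1, lower at 100 nM by 0.49 (95% interval -0.89 to -0.1), HES5, at -0.35 (95% interval -0.63 to -0.07), and HEY1, at -0.29 (95% interval -0.58 to -0.01), each with wells that did not overlap between doses. For these 3 genes, and for 11.2% of all genes, the doses did not overlap. For 24 h against 12 h of 50 nM, 0 of the 10 genes were called, against 0.537% of all genes, and 4 had an unadjusted p under 0.05, against 10.9%. These were NOTCH2, higher after 24 h by 0.43 (95% interval 0.13 to 0.72), NOTCH3 (0.33), HES6 (0.32) and HES1, which lies near background. The times did not overlap for NOTCH2, NOTCH3 and JAG1, against 16.9% of all genes. HES5 differed between the times by 0.07 (95% interval -0.21 to 0.35) and HEY1 by 0.11 (95% interval -0.18 to 0.4).

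On day 15, 7 days after rotenone had been washed out, no member of the gene set was called at any exposure. In each of the 3 comparisons with DMSO, 0 of the 10 genes and 0 of all 21240 genes (0%) had an adjusted p under 0.05 in limma, and 0 of the 10 had an unadjusted p under 0.05, against 7.21% (100 nM), 3.28% (50 nM for 24 h) and 3.47% (50 nM for 12 h) of all genes. HES5 measured 7.78, 8.01 and 8.06 in DMSO and 7.92, 7.85 and 8.05 after 100 nM, so that the wells overlapped. Its change was -0.01 (95% interval -0.29 to 0.27). HEY1 measured 8.21, 8.07 and 8.55 in DMSO and 8.08, 8.2 and 8.35 after 100 nM, a change of -0.07 (95% interval -0.35 to 0.22). The lowest and highest wells of that day were both controls. HES6 changed by 0.04 (95% interval -0.23 to 0.31). Apart from HES1, the widest interval after 100 nM was that of NOTCH1, from -0.46 to 0.51, so that a change of up to that size could not be seen with 3 wells. Of the 10 genes, 2, 1 and 3 had groups that did not overlap after 100 nM, 50 nM for 24 h and 50 nM for 12 h, against 7.84%, 7.15% and 7.43% of all genes. HES1, near background, was among them at 100 nM and at 12 h. The others were NOTCH3 at 100 nM (0.21) and at 50 nM for 24 h (0.2), and DLL3 (0.08) and HES6 (-0.1) after 12 h. Without the array of 100 nM that stood apart, or without DMSO replicate 1, 0 of the 10 genes were called as well.

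Whether the change with 100 nM differed between the days was tested as an interaction. HES5 was called, with a change on day 15 that lay 0.72 above that on day 8 (SE 0.19, adjusted p = 0.0498), the only one of the 10 genes, against 2.44% of all genes. HEY1 gave 0.68 (SE 0.19, adjusted p = 0.0692) and HES6 -0.43 (SE 0.18, adjusted p = 0.27). With the slide as a replicate block in place of the batch correction, the HES5 value was 0.73 and was not called (adjusted p = 0.0808). Its call was also lost without any 1 of 10 of the 12 arrays, controls included, with an adjusted p between 0.0548 and 0.126; without the array that stood apart the value was 0.67 (adjusted p = 0.104), and without DMSO day 15 replicate 1 it was 0.63 (adjusted p = 0.121). It was kept without DMSO day 8 replicate 2 and without 100 nM day 8 replicate 1.

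The days were compared in the absence of rotenone as well. In DMSO, 5 of the 10 genes were called between day 8 and day 15, against 23.2% of all genes, and all 5 changed by over 1.5-fold, against 12.2%. JAG1, NOTCH1, NOTCH3 and DLL3 fell (4 of 10, against 13.2% lower among all genes) and DLL1 rose (1 of 10, against 10.1% higher). Wells of the 2 days did not overlap for 8 of the 10 genes, against 40% of all genes.

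JAG1 measured 8.24, 7.75 and 7.68 on day 8 and 5.19, 5.85 and 5.57 on day 15. Every day 15 well lay over 1.5 log2 units below every day 8 well, and the change was -2.35 (SE 0.19, ratio 0.196, adjusted p = 2.67e-08). NOTCH3 measured 10.04, 9.63 and 9.81 on day 8 and 9.07, 9.05 and 9.01 on day 15, a change of -0.78 (SE 0.15, ratio 0.581, adjusted p = 0.000578). DLL3 measured 11.13, 10.69 and 11.03 on day 8 and 10.32, 10.31 and 10.36 on day 15, a change of -0.62 (SE 0.11, ratio 0.65, adjusted p = 0.000224). The day 15 wells of both genes lay close together and below all day 8 wells. DLL1 ran the other way, with 6.44, 6.47 and 6.25 on day 8 and 7.07, 7.39 and 6.95 on day 15, a change of 0.75 (SE 0.13, ratio 1.68, adjusted p = 0.000315). Its groups did not overlap either. Without DMSO day 15 replicate 1, whose scan name does not match its label, the same 5 genes were called. The call of DLL1 was lost without batch correction (adjusted p = 0.122) and that of DLL3 on slides 2 and 3 alone (adjusted p = 0.0606).

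NOTCH1 fell by 0.96 (SE 0.23, ratio 0.514, adjusted p = 0.00496), with wells at 6.41, 6.15 and 6.26 on day 8 and 5.37, 5.47 and 5.12 on day 15. Its probes did not agree, although both belong to transcript NM_017617. The probe printed in 10 spots, well above background on 15 of 24 arrays, changed by -1.81, and the other probe, well above background on all 24, changed by -0.11. With that other probe alone the gene was not called (adjusted p = 0.777), nor on slides 2 and 3 alone (adjusted p = 0.111). The 10 spots of the first probe differed within an array by a median SD of 0.24 (0.11 to 0.68). NOTCH2 was not called (-0.27, adjusted p = 0.178), and its probes, which belong to different transcript accessions, changed by -0.78 and 0.23. With the brightest probe alone NOTCH2 was called lower (-0.78, adjusted p = 0.0326).

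Of the HES and HEY genes, none was called between the days in DMSO. HES5 changed by -0.24 (95% interval -0.51 to 0.04), HEY1 by 0.25 (95% interval -0.03 to 0.54) and HES6 by 0.35 (95% interval 0.09 to 0.62, adjusted p = 0.0524). For HES6 and HEY1 all day 15 wells lay above all day 8 wells. HES6 was called with the processed signal, with an offset of 50, with only probes well above background, with the authors' log2 values and without DMSO day 8 replicate 1 (adjusted p from 0.0227 to 0.0443), and HEY1 with the processed signal (0.34, adjusted p = 0.043). Of 10 proliferation markers 9 were called lower on day 15, against 13.2% of all genes. Their summed log2 level ranged from 63.29 to 71.16 on day 8 and from 52.23 to 53.52 on day 15. TOP2A, BUB1 and AURKB were not well above background on any day 15 DMSO array. The part of the proliferation markers in the changes of JAG1, NOTCH3, DLL3 and DLL1 was not tested. Of 8 dopaminergic markers 3 rose and 2 fell, with a median of 0.36. NR4A2 rose by 1.57, LMX1B by 0.74 and PITX3 by 0.46, whereas TH fell by 2.94 and SLC6A3 fell by 2.07. All 9 neuronal markers stayed well above background.

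**Figure D4:**
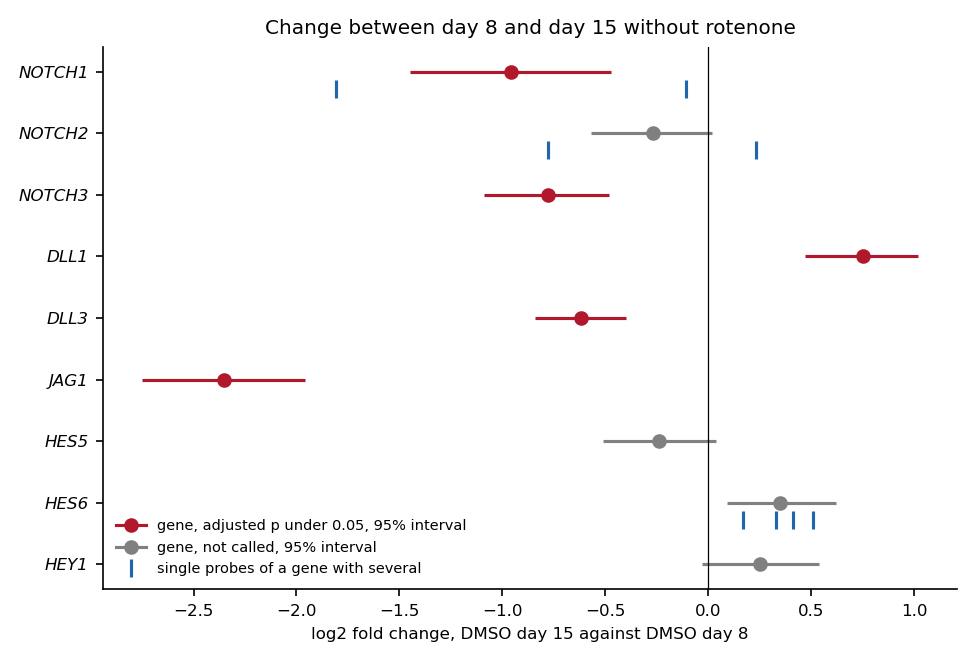
Log2 fold change from day 8 to day 15 in DMSO for 9 genes with 95% confidence intervals from limma; blue ticks give the single probes of NOTCH1, NOTCH2 and HES6. JAG1 has the lowest value, at -2.35, DLL1 is the only called gene above 0, and the 2 probes of NOTCH1 lie far apart, at -1.81 and -0.11.

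The rest of the pathway was described through 6 lists with 102 genes, of which 100 were tested. After 100 nM on day 8, 10 of these rose and 6 fell (16% called against 9.48% of all genes), with a median change of -0.03 against -0.02 over all genes. Of 12 other ligands and receptors, 3 rose and 1 fell. DLK1, an imprinted ligand-like protein that lacks the receptor-binding DSL domain, rose by 1.27 (SE 0.14, adjusted p = 1.12e-05), and the receptor NOTCH4 fell by 0.49 (SE 0.12, adjusted p = 0.0138). Of 15 genes for receptor cleavage and glycosylation, 2 rose and 0 fell. MFNG, a glycosyltransferase that changes which ligands a receptor answers to, rose by 0.77 (SE 0.1, adjusted p = 6.71e-05). Both also rose at 50 nM, DLK1 by 1 after 24 h and 0.77 after 12 h and MFNG by 0.81 and 0.63.

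Of 22 genes of the nuclear complex and its corepressors, 2 rose and 3 fell. RBPJ itself fell from a mean of 11.6 to 11.21, by 0.39 (SE 0.082, adjusted p = 0.00455), the histone deacetylase HDAC2 fell by 0.63 (adjusted p = 0.000273) and the coactivator CREBBP by 0.37 (adjusted p = 0.0257). The list of endocytosis and ubiquitin regulators also held the signaling genes DVL1, DVL2 and DVL3 and the repressor BCL6. Of its 23 genes 1 rose, DVL1, by 0.65 (adjusted p = 0.00204), which is not itself an endocytosis or ubiquitin gene. Of 14 other HES, HEY and target genes, 1 rose and 0 fell.

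The proneural list held bHLH factors of the kind HES proteins repress, the E proteins TCF3, TCF4 and TCF12, and INSM1 and BTG2. Of its 14 genes, 1 rose and 2 fell after 100 nM on day 8, with a median change of -0.03. INSM1, a zinc finger factor of newborn neurons, rose by 0.47 (adjusted p = 0.00224), and NEUROG1 fell by 0.79 (adjusted p = 0.01). Of the markers, 3 of 9 neuronal genes fell (MAP2 by 0.57, ELAVL4 by 0.51 and SNAP25 by 0.3), and all 9 stayed well above background. Of 8 neural progenitor markers 1 was called, VIM, which rose by 0.42 (adjusted p = 0.0278), and 3 had an unadjusted p under 0.05, the others being NES (0.59, adjusted p = 0.0608) and PAX6 (-0.45, adjusted p = 0.0597). The summed level of the progenitor list ranged from 55.05 to 57.32 against 54.17 to 55.74 in DMSO, with SOX2 not well above background. Of 10 proliferation markers 0 were called, 1 with an unadjusted p under 0.05, with summed levels from 59.63 to 65.68 against 63.29 to 71.16 in DMSO. The part of these markers in the changes of HES5, HEY1 and HES6 was not tested. On slides 2 and 3 alone 2 of the 100 pathway genes were called, without batch correction and in a fit of the 6 arrays alone 6 each, and without exposed replicate 1 there were 10.

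Between the days in DMSO, 14 of the 100 other pathway genes rose and 31 fell (45% called against 23.2% of all genes), with a median change of -0.17 against -0.04 over all genes. Of the 14 genes of the proneural list, which are not all proneural factors, 0 rose and 11 fell, with a median of -1.11. NEUROG1 went from a mean of 9.29 to 5.96, a change of -3.33 (SE 0.19, adjusted p = 2.05e-10), and NEUROD4 from 9.46 to 5.88, a change of -3.58 (SE 0.23, adjusted p = 1.72e-09). BTG2, an antiproliferative gene of neurogenic progenitors, fell by 1.33, and the E protein TCF4, a partner of proneural factors, fell by 1.41. NEUROD2 was well above background on all 3 arrays of day 8 and 1 of 3 of day 15, where its means were 7.38 and 4.02. NEUROD6, counted among the 11, was not well above background on any array, so that its value is no level.

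Of 12 other ligands and receptors 6 rose and 0 fell, with a median of 0.43. CNTN1, a neuronal adhesion molecule that can bind NOTCH, rose by 1.2 (SE 0.18, adjusted p = 8.42e-05). Of 15 genes for cleavage and glycosylation 0 rose and 5 fell. LFNG, a glycosyltransferase like MFNG, named here after its value was seen, fell by 2.27 (adjusted p = 9.04e-08), and MFNG fell by 0.71 (adjusted p = 3.59e-05). Of 22 nuclear genes 3 rose and 5 fell. TLE2, a corepressor recruited by HES proteins, went from a mean of 3.7, with 1 of 3 arrays well above background, to 5.36, with all 3. RBPJ fell by 0.29 (adjusted p = 0.0152). Of the 23 genes listed with the endocytosis and ubiquitin regulators 3 rose and 4 fell. The ubiquitin ligase NEDD4L rose by 0.67 (adjusted p = 7.39e-06) and the endocytic adaptor EPN2 by 0.71 (adjusted p = 2.68e-05). Of 14 other HES, HEY and target genes 2 rose and 6 fell, and BHLHE41, a bHLH repressor related to the HES family, rose by 1.81 (SE 0.12, adjusted p = 3.37e-09). On slides 2 and 3 alone, where 1752 of all 21344 genes tested were called, 24 of the 100 genes were called, 9 of them lower members of the proneural list. Without DMSO day 15 replicate 1 the count was 36.

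**Figure D5:**
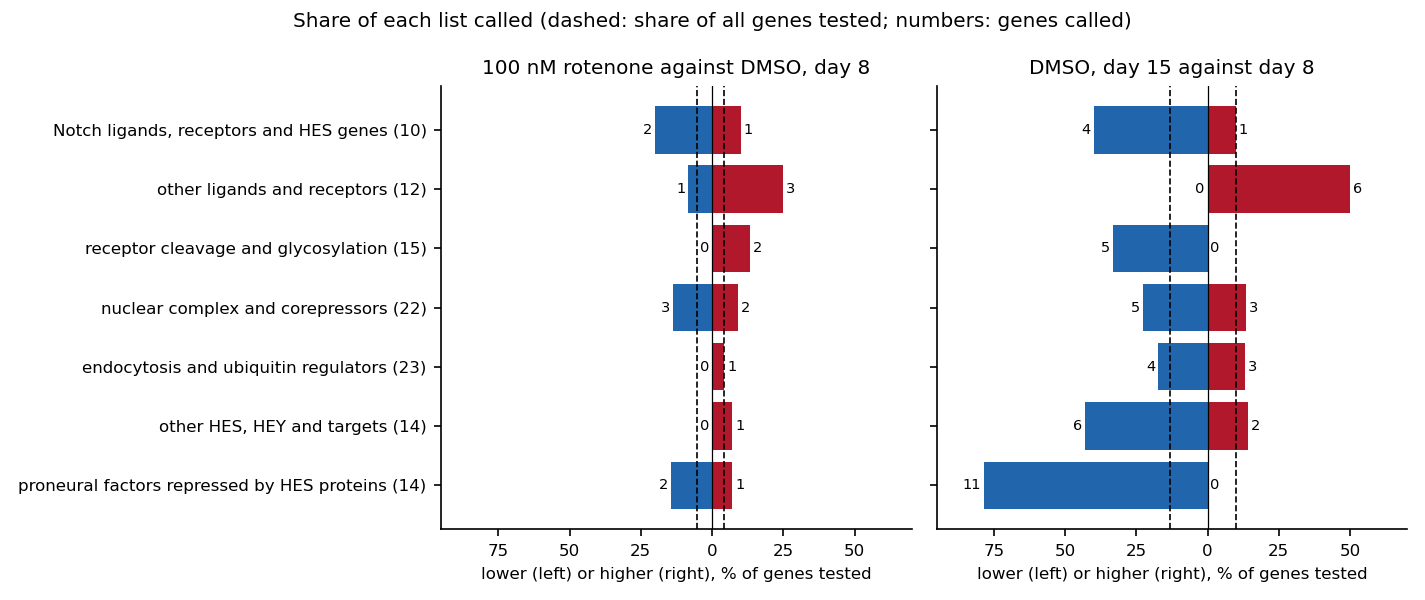
Share of each list of genes called lower (blue, left) or higher (red, right) at an adjusted p under 0.05, with the numbers of genes called beside the bars and the number tested in parentheses; dashed lines give the shares over all genes tested. After 100 nM on day 8, calls in both directions appear among the other ligands and receptors, the nuclear genes and the proneural list. Between the days in DMSO 11 of the 14 genes of the proneural list are lower and 6 of 12 other ligands and receptors higher.

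At 50 nM, 10 of the 100 genes rose and 5 fell after 24 h (15% called against 8.02% of all genes), and 6 rose and 2 fell after 12 h (8% called against 5.52%). On day 15, 0 of the 100 other pathway genes were called after any exposure. The interaction between 100 nM and day is the change on day 15 minus that on day 8. It called 4 of the 100 genes (4% against 2.44% of all genes): DLK1 (-0.92), MFNG (-0.83), INSM1 (-0.69) and HDAC2 (0.64).

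Patterns over all arrays were compared with those of 12921 genes that were well above background on all 24 arrays, as a description. Correlations across the 24 arrays carry the separation of the days, which the arrays share by design. Within the gene set, NOTCH3 and DLL3 had the highest Pearson r (0.96), followed by NOTCH1 with NOTCH3 and DLL3 with JAG1 (0.93 each), and DLL1 and DLL3 had the lowest (-0.89). HES5 and HEY1 correlated at 0.64, and HES6 with HEY1 at 0.01. The genes most like JAG1 were CRYBA1, ZWINT and BAZ1A (0.98 each), those most like DLL3 were IFITM3 (0.98), AGPAT2 (0.98) and IFITM1 (0.97), and those most like NOTCH3 were ACSF2 (0.97), WDR77 and CLPTM1L (0.96 each). DLL1 was most like TUBA1C (0.97), RPS6KA3 and SCOC-AS1 (0.96 each). NOTCH1 was most like ABHD4, SIK1 and CD248 (0.96 each), and NOTCH2 most like ABRAXAS1, ACSF2 and POPDC3 (0.92 each). HEY1 was most like PDP1, YTHDC1 and RP9 (0.95 each). HES5 reached 0.86 with CDH10 and HES6 0.84 with FBLN1, lower than the best match of any of the other 7 genes compared.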

How the data were processed

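RNA of 24 wells was measured on single-color Agilent arrays. Samples were grouped by their labels. The authors deposited the median spot and background intensity of each array and the software's processed intensity, with outlier flags, and a matrix of their normalized log2 values. The file headers name Feature Extraction 12.0.0.7 for slide 2 and 11.5.1.1 for slides 1 and 3; the submitters' processing notes name 11.5.1.1 and R 3.5.

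The median intensity was corrected with normexp (offset 0) and quantile normalized in limma 3.58.1 (R 4.3.3, data.table version 1.17.8). Slide 1 was adjusted to slides 2 and 3 by parametric ComBat, written out and tested on simulated data, with groups as covariates. Spots had to exceed 1.1 times the 95th percentile of negative controls on 3 arrays, and values with an outlier flag became missing. Spots, then probes of a gene, were averaged. A gene was called at a Benjamini-Hochberg adjusted p under 0.05 in 1 limma fit of all arrays (16 residual and 2.37 prior degrees of freedom, two-sided). "Not well above background" is the software's mark, and precision is limited by the 24 arrays. Accessions were matched to RefSeq, which named 30275 of 50599 probes, and promoter windows are those of RefSeq. Figures used matplotlib 3.10.9 under Python 3.11.15.

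The replicate number is the slide. Taken about the group mean and before batch correction, 84 same-slide pairs of arrays had correlations from 0.171 upward (median 0.458). The 168 pairs from different slides had a median of -0.354, which centering 3 arrays on their mean lowers by itself. Arrays of a slide thus resembled each other. Whether their wells also shared a differentiation cannot be told from this, since a shared hybridization would give the same. The genes and lists were chosen with earlier results of these data known. Beside the 10 genes, the text names up to 5 higher and 5 lower genes of the lists with the smallest p whose groups did not overlap, in 100 nM on day 8 and between days in DMSO, the genes of the lists called in the interaction, markers, and the 3 genes most like each of the 10. A gene that this rule would name is not reported here. Alternatives were the processed signal or normexp signal scaled to the 75th percentile, an offset of 50, no batch correction, a replicate block, slides 2 and 3 alone, other filters, the brightest probe, the deposited log2 values, a fit of the compared arrays alone, and leaving out each array.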

Additional observations from a re-analysis of the deposited data

Results flagged for a closer look

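With 100 nM rotenone, HES5 changed by -0.73 on day 8 and by -0.01 on day 15, and the interaction of 0.72 passed the test in limma (adjusted p = 0.0498). The call lay at the threshold and was lost under 15 of 23 alternatives. Among these were the slide as a block (adjusted p = 0.0808) and no batch correction (adjusted p = 0.269). The reason for the difference was not tested.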

How the results depend on the processing

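No called change of the 10 genes turned its direction under any alternative. The calls of JAG1 and NOTCH3 between the days in DMSO held under all 17 alternatives. Of the 10 genes, 3 were called after 100 nM on day 8, against 4 with an offset of 50, 2 each without batch correction and with the brightest probe, 1 on slides 2 and 3 alone, 1 in a fit of the compared arrays, and 2 to 3 with single arrays left out. After 50 nM for 24 h 2 were called, and 2 with the brightest probe, where HES6 (0.46, adjusted p = 0.0312) took the place of NOTCH2, against 3 with an offset of 50, 1 with normexp signal scaled to the 75th percentile, 0 without batch correction, 0 on slides 2 and 3, 1 in a fit of the compared arrays and 1 to 2 with single arrays left out. After 50 nM for 12 h 1 was called, against 2 each with an offset of 50, with normexp signal scaled to the 75th percentile, with only probes well above background on 3 arrays and with the authors' log2 values, 0 each without batch correction, on slides 2 and 3 and in a fit of the compared arrays, and 0 to 1 with single arrays left out. Between the days in DMSO 5 were called, and 5 with the brightest probe, where NOTCH2 took the place of NOTCH1, against 7 with the processed signal, 6 each with an offset of 50, with only probes well above background on 3 arrays and with the authors' log2 values, 4 without batch correction, 3 on slides 2 and 3 and 5 to 6 with single arrays left out. In the interaction 1 was called, against 2 each with an offset of 50 and with the authors' log2 values, 0 each without batch correction, with the replicate block, on slides 2 and 3, without a filter and in a fit of the compared arrays, and 0 to 1 with single arrays left out. The replicate block changed no other call of the 10 genes. On day 15, and between doses and times, 0 were called under every alternative. Of the other pathway genes, 16 were called after 100 nM on day 8, against 6 without batch correction, 2 on slides 2 and 3, 6 in a fit of the compared arrays and 10 to 14 with single arrays left out, and 45 between the days in DMSO, against 24 on slides 2 and 3 and 36 to 40 with single arrays left out; the alternatives for these lists were added after the data were seen. Over all genes, those called after 100 nM on day 8 numbered 2014, against 633 without batch correction, 194 on slides 2 and 3 and 808 in a fit of the compared arrays. Between the days in DMSO they numbered 4935, against 1752 on slides 2 and 3. Slides 2 and 3 alone leave 2 arrays in a group, and a fit of the compared arrays fewer residual degrees of freedom. The processed signal moved the median change of all genes to 0.1 (100 nM, day 8) and 0.15 (DMSO, between days), and the normexp signal scaled to the 75th percentile moved it to 0.14 in the interaction.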
